A study of Mus musculus with 17 samples.

Results

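The transcription factors of the AP-1 group and Atf3 were examined here as places where RNA polymerase II was recovered from the chromatin of mouse macrophages. The members were Fos, Fosb, Fosl2, Jun, Junb, Jund, Atf3, Batf and Maff, 9 of 21887 protein-coding genes of the RefSeq annotation of GRCm38, and they were chosen by name. A summit, the 1 bp point at which the authors' peak caller placed the top of a peak, was given to a gene when it lay between 1 kb before and 1 kb after the annotated gene. All 9 were among the 8475 genes that were tested because they had a summit in at least 2 of the 16 lists after all lists had been made equally long.

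Chromatin immunoprecipitation with an antibody to RNA polymerase II and sequencing (ChIP-seq) were done on bone marrow-derived macrophages, which are grown from the marrow of mice. Cells were wild type (WT) or N4bp1 KO, and were untreated or had received R837 for 2, 4 or 6 h. R837 is imiquimod, an agonist of the endosomal receptor TLR7. N4BP1 is known to restrain inflammatory signalling and is cleaved by caspase-8. Each of the 8 groups (WT untreated, WT with R837 for 2 h, 4 h or 6 h, and the same 4 for KO) held 2 libraries, so that 4 libraries were untreated and 12 had received R837. No other allele or agent is named in the labels for any group. The R837 dose, the age and number of mice, the extent of the N4bp1 deletion, and whether replicates came from separate cultures are not stated in the labels. P-values therefore rest on the scatter of these libraries alone, and that scatter may be technical.

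AP-1 factors bind DNA as pairs through a basic region and a leucine zipper (bZIP). FOS proteins need a JUN partner, whereas JUN proteins can also pair with each other, and the pairs bind the sequence TGACTCA or a close relative. Many of these genes are immediate early genes, which are transcribed within minutes of a stimulus without new protein synthesis and are then switched off again. In macrophages AP-1 acts with NF-kB at cytokine genes, and ATF3 is induced by Toll-like receptors and is known to restrain some cytokine genes.

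The deposited lists held 20607 to 24720 summits in the untreated libraries and 8394 to 29760 in the R837 libraries, with no read counts, so read depth is unknown. Replicate 2 of KO at 6 h stood apart, with the longest list and a highest score of 563.5 against at most 320.4 elsewhere. Replicate 2 of WT at 6 h had the shortest list. The peak names carry a code, and the untreated and 2 h libraries share 1 series of codes while 4 h and 6 h each have their own, so that any batch tied to these codes and the times 4 h and 6 h cannot be told apart. Of 8 macrophage markers, 7 had a summit in all 4 untreated libraries and all 8 in at least 1 library, with a summed rank score (defined below) of 29.66 to 33.42 in untreated and 25.93 to 48.12 in R837 libraries. No B cell marker of 5 and no fibroblast marker of 5 had a summit in any shortened list. Of the other lists, 1 of 6 T and NK cell markers (Lck), 2 of 6 neutrophil markers (S100a8 and Camp, R837 libraries only) and 2 of 5 dendritic cell markers (Flt3 and Xcr1) had one. The summed dendritic cell score was 0.38 to 1.61 in untreated and 0.37 to 5.15 in R837 libraries, and the neutrophil score reached 1.44 with R837, and the part of such cells in the results was not tested. N4bp1 itself had a summit in the shortened list of 6 of 8 WT libraries (rank score 0 to 3.15) and 6 of 8 KO libraries (0 to 3.97), and since polymerase can be recovered outside a deleted part, this does not check the genotype.

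The 250 bases before the annotated starts of Fos, Jun, Junb and Atf3 are shown because each of these genes had a summit within 250 bp of its start in all 4 untreated libraries. The sequences are RefSeq's on GRCm38.p6, written 5′ to 3′ on the strand of the gene, and the last base shown is the one before the annotated start. Capitals mark matches, on either strand, to the AP-1 site TGACTCA, to its variant with 1 more base, TGACNTCA, to the cyclic AMP response core ACGTCA, to the TATA box core TATAA or to the box known as CCAAT. The windows are chr12:85473640-85473889 for Fos on the plus strand, and chr4:95052223-95052472 for Jun, chr8:84978749-84978998 for Junb and chr1:191183334-191183583 for Atf3, all on the minus strand.
Fos: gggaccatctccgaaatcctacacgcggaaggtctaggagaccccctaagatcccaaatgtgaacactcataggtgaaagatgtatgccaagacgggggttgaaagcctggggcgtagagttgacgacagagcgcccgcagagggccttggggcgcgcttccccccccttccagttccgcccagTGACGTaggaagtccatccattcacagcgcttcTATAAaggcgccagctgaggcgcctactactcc
Jun: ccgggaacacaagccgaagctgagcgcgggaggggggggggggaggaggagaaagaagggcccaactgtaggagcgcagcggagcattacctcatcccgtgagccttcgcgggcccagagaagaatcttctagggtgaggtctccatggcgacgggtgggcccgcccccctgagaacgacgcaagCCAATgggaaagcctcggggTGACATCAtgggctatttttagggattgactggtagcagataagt
Junb: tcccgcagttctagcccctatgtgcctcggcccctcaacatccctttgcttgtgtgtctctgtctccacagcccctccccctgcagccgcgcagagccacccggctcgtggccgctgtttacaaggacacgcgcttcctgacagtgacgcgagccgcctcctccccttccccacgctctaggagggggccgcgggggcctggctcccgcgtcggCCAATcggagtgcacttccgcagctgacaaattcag
Atf3: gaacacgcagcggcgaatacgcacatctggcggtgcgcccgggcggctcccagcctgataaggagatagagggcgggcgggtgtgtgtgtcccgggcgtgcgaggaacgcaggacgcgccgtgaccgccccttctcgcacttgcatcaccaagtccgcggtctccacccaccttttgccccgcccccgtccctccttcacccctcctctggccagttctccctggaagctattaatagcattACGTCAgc

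The Fos window held TGACGT, the reverse complement of ACGTCA and the core of the cyclic AMP response element, at position −66 and TATAA at −33, counted from the annotated start. The Jun window held TGACATCA at −45, the form of the site known from the Jun promoter, and CCAAT at −65. The Junb window held CCAAT at −36 and the Atf3 window ACGTCA at −8. Of the other members, Batf held TGACGT at −98, Maff held TGACGTCA at −29 of its second annotated start and TGACATCA at −45 of the third, and no match was found for Fosb, Fosl2, Jund or the first start of Maff. No member window held TGACTCA, which was found in 4.06% of 21263 promoter windows of the same length. The shares of those windows were 7.25% for TGACNTCA, 7.37% for ACGTCA, 20.3% for TATAA and 35.4% for CCAAT, and ACGTCA is part of TGACNTCA where the site reads TGACGTCA. A match describes letters in the window and shows no binding.

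The lists differed in length, so only the 8394 top summits of each library were kept. This drops lower summits and leaves the ranks of the others unchanged, so it does not correct the ranks for read depth. For each gene the best-ranked summit was taken, and its rank score is log2 of (8394 + 1) over that rank (0 for a gene without a summit), so that a rise of 1 means a rank that is better by a factor of 2, up to a highest possible value of 13.04. It is a place in a list, not an amount of polymerase. Each library pools many cells, so fewer cells with polymerase at a gene and less polymerase per cell cannot be told apart.

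Junb had the highest rank scores of the 9 genes, and Fos the next. In the untreated libraries the medians (lowest to highest of 4) were 8.83 (8.34 to 9.23) for Junb, 6.48 (6.07 to 6.97) for Fos and 5.23 (4.39 to 6.75) for Jund. Atf3 followed at 4.73 (4.66 to 5.79), Batf at 4.56 (3.79 to 5.18) and Jun at 3.72 (1.06 to 4.57). Fosl2 at 2.49 (1.42 to 2.52), Maff at 0.98 (0.04 to 1.33) and Fosb at 0.40 (0 to 1.07) were lowest. Neighbours in this order overlapped, except that Junb lay above Fos, and Fosl2 above Maff, in all libraries. After R837 the order of the medians (lowest to highest of 12) was Junb at 8.91 (7.68 to 10.71), Fos at 6.01 (4.11 to 7.71), Batf at 4.07 (2.68 to 5.34), Jund at 3.23 (0 to 4.92) and Atf3 at 2.58 (0.33 to 4.59). Jun at 1.34 (0 to 2.14), Fosl2 at 1.22 (0 to 3.29), Maff at 0.78 (0 to 1.93) and Fosb at 0 (0 to 1.12) came after them. The ranges of all neighbours in this order overlapped. A longer gene region offers more places for a summit, and the regions ran from genes of 1840 bp (Junb) to 22368 bp (Batf).

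**Figure D1:**
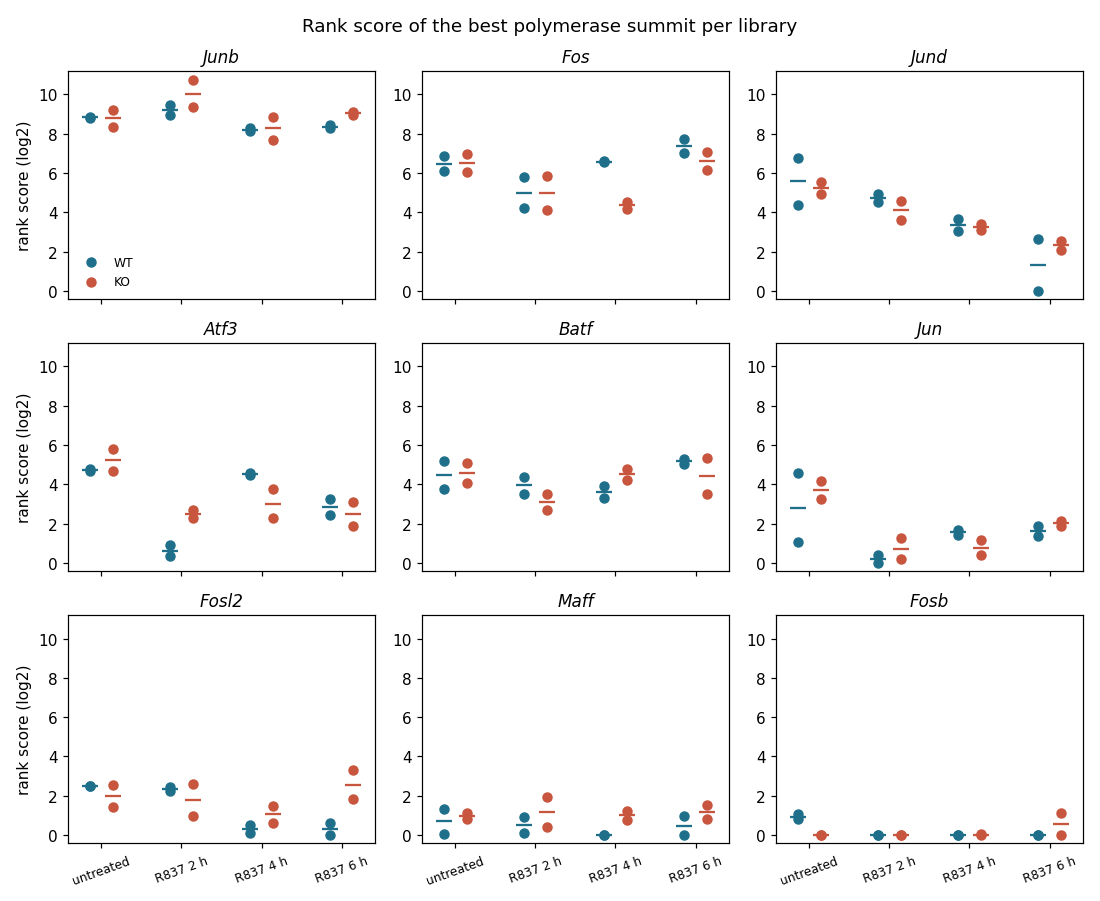
Rank score (log2) of the best summit of each gene, by R837 time, with 1 point per library (WT blue, KO red) and a short line at the mean of the 2 libraries of a group. Junb stays between 7.68 and 10.71, Jund steps down with time to between 0 and 2.62 at 6 h, and the WT libraries of Atf3 are lowest at 2 h.

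Over both genotypes and all 3 times, Atf3, Jund and Jun were lower after R837 than in untreated cells, and none of the 9 genes was higher. With limma over all tested genes and Benjamini-Hochberg adjustment, 3 of 9 fell past an adjusted p of 0.05 (33.3%), against 29.5% of all tested genes, and 0 of 9 rose, against 5.79%. The members' share that fell was thus near that of all genes. The median change of the 9 was −0.69, beside −0.33 for all 8475 tested genes. When each gene was given 1 rank, the median was −0.27 for the 8 members tested and 0.04 for all 5235 genes tested. The R837 libraries also had fewer genes with a summit in the shortened list, 2693 to 5885 against 6430 to 6689, and the part of this in the falls was not tested.

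Atf3 encodes a bZIP factor of the ATF/CREB family (chr1:191170296-191183333, minus strand). In untreated cells its rank scores were 4.76 and 4.70 in WT and 4.66 and 5.79 in KO. At 2 h they were 0.92 and 0.33 in WT and 2.70 and 2.27 in KO, below every untreated library. At 4 h WT was back at 4.47 and 4.59 while KO stood at 2.28 and 3.75, and at 6 h the values were 2.45 and 3.27 in WT and 1.86 and 3.10 in KO. All 4 libraries at 2 h and at 6 h lay below all untreated ones, and so did those at 4 h, by little in WT.
The fall was 2.31 (SE 0.39, adjusted p = 0.00054, limma) over all times, and by time the change was −3.42 (SE 0.47, adjusted p = 0.000217) at 2 h, −1.20 (SE 0.47, adjusted p = 0.0793) at 4 h and −2.30 (SE 0.47, adjusted p = 0.00284) at 6 h. The calls over all times, at 2 h and at 6 h were kept when any 1 of the 16 libraries was left out. Without replicate 2 of KO at 6 h, the library that stood apart, the change was −2.41 over all times and −2.61 at 6 h.

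The summits of Atf3 did not lie at the same places at all times. In all 4 untreated libraries, all 4 at 2 h and all 4 at 4 h the best summit lay 128 to 242 bp after the start, at ranks 152 to 333 in untreated and 1292 to 6688 at 2 h. At 6 h no library had a summit within 250 bp of the start, and the best summit lay at 773 and 12241 bp in WT and 803 and 622 bp in KO. Over all 12 R837 libraries the mean distance was 1317.7 ± 3449.5 bp (SD), against 168.8 ± 28.4 bp (SD, n = 4) in untreated ones, which an exact permutation test within genotypes (two-sided) did not call (p = 0.384, adjusted p = 0.512). The difference of 1148.9 bp rested on the 12241 bp of replicate 2 of WT at 6 h, without which the R837 mean was 324.6 bp and the difference 155.9 bp. The number of deposited summits in the gene region was 6 and 9 in WT untreated, 2 and 3 in KO untreated, 1 to 3 at 2 h, 10 to 12 at 4 h and 10 to 13 at 6 h. With log2(number + 1) in the shortened lists in place of the rank score, Atf3 was higher at 6 h than at 2 h by 1.68 (SE 0.24, adjusted p = 0.0026, limma), where 4.86% of all tested genes rose. Its change by this measure at 6 h against untreated was 0.74 (adjusted p = 0.0556), the opposite sign to that of its rank score. The shortest list of all, replicate 2 of WT at 6 h, held 13 of these summits. The measure of the best summit and the number of summits thus moved in different ways in this gene.

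**Figure D2:**
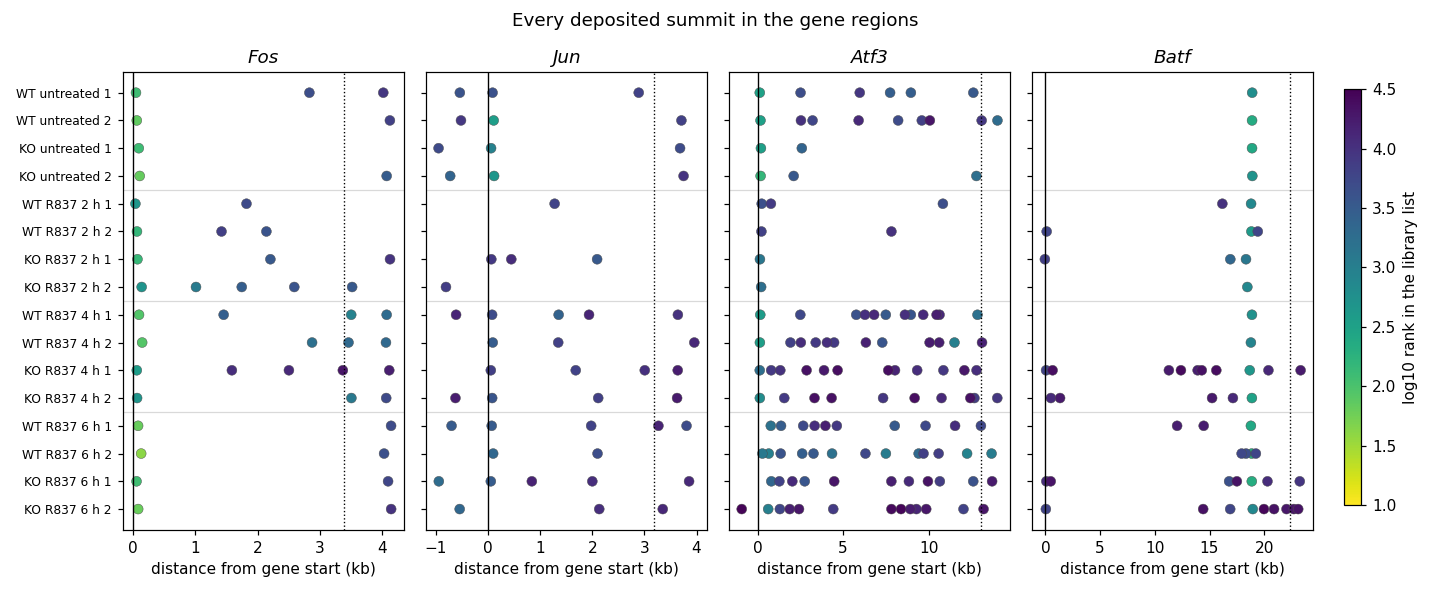
Every deposited summit in the gene regions of Fos, Jun, Atf3 and Batf, 1 row per library, by distance from the annotated start in kb (solid line, start; dotted line, gene end), coloured by log10 of its rank in its own list, where lighter is better. Fos keeps a leading summit at the start in all 16 rows, the start summit of Atf3 is missing from the 4 rows at 6 h, and Batf is led by a summit near 18.9 kb.

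Jun encodes the JUN partner of the classical AP-1 pair (chr4:95049036-95052222, minus strand). Its untreated rank scores were 1.06 and 4.57 in WT and 3.26 and 4.18 in KO. At 2 h they were 0.42 and 0 in WT and 1.28 and 0.18 in KO, at 4 h 1.70 and 1.41 in WT and 0.40 and 1.17 in KO, and at 6 h 1.39 and 1.90 in WT and 2.14 and 1.90 in KO. Replicate 1 of WT untreated lay among the R837 values, and the other 3 untreated libraries lay above all 12 of them.
The change was −2.11 (SE 0.51, adjusted p = 0.00644, limma) over all times, −2.80 (SE 0.63, adjusted p = 0.00535) at 2 h, −2.10 (SE 0.63, adjusted p = 0.0265) at 4 h and −1.43 (SE 0.63, adjusted p = 0.105) at 6 h. Leaving out replicate 2 of WT untreated moved the change over all times to −1.23 (adjusted p = 0.0274). The 4 h call was lost without replicate 2 of WT untreated (−1.22), replicate 2 of KO untreated (−1.87), replicate 1 (−2.17) or 2 (−2.02) of WT at 4 h, or replicate 1 of KO at 4 h (−1.90), and with 1 rank per gene (−1.50, adjusted p = 0.0631). Both the 2 h call (adjusted p = 0.0685) and the 4 h call (adjusted p = 0.124) were lost when only the compared groups were fitted. A summit within 250 bp of the Jun start was present in all 4 untreated libraries, at ranks 353 to 4243, in 1 of 4 at 2 h, at rank 8248, in all 4 at 4 h and in 3 of 4 at 6 h. The region overlaps that of the antisense gene Junos, and the best summit lay in both regions in all 4 untreated and 7 of 12 R837 libraries, so the gene it belongs to cannot be told apart.

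Jund encodes a JUN protein that is known to be made in resting cells and to slow growth (chr8:70697739-70700616, plus strand). Its rank scores were 4.39 and 6.75 in WT untreated and 4.92 and 5.54 in KO untreated. They were 4.54 and 4.92 (WT) and 3.63 and 4.59 (KO) at 2 h, 3.03 and 3.64 (WT) and 3.39 and 3.08 (KO) at 4 h, and 2.62 and 0 (WT) and 2.55 and 2.07 (KO) at 6 h. The 2 h values overlapped the untreated ones, the 4 h values lay below all untreated ones, and the 6 h values lay below those at 4 h.
The change was −2.23 (SE 0.51, adjusted p = 0.00434, limma) over all times, −0.98 (SE 0.62, adjusted p = 0.248) at 2 h, −2.12 (SE 0.62, adjusted p = 0.0243) at 4 h and −3.59 (SE 0.62, adjusted p = 0.000972) at 6 h. From 2 h to 6 h it fell by 2.61 (SE 0.62, adjusted p = 0.0201). The calls over all times and at 6 h were kept with any 1 library left out, and without replicate 2 of KO at 6 h the change at 6 h was −3.47. The 4 h call was lost without replicate 2 of WT untreated (−1.53), replicate 2 of KO untreated (−1.96), replicate 1 of WT at 4 h (−1.97) or replicate 1 (−2.19) or 2 (−2.04) of KO at 4 h. The 6 h against 2 h call was lost without replicate 2 of WT (−2.51) or KO (−2.37) at 2 h, or replicate 2 of WT (−1.96) or KO (−2.49) at 6 h. The best Jund summit lay 863 to 1362 bp after the start, inside the gene, in all 15 libraries with one, and replicate 2 of WT at 6 h had none in its list. The score of 0 of that library, the one with the shortest list, enters the 6 h change beside 2.07 to 2.62 in the others at 6 h.

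Junb encodes a JUN protein with weaker activating power than JUN (chr8:84976909-84978748, minus strand), and it stayed near the top of every list. Its best summit ranked 14 to 26 in the untreated libraries and 5 to 41 in the R837 libraries. The rank scores were 8.79 and 8.86 (WT) and 9.23 and 8.34 (KO) untreated, 9.45 and 8.95 (WT) and 10.71 and 9.34 (KO) at 2 h, 8.13 and 8.28 (WT) and 8.86 and 7.68 (KO) at 4 h, and 8.45 and 8.28 (WT) and 8.95 and 9.13 (KO) at 6 h. The ranges of untreated and R837 libraries overlapped, and the change over all times was 0.05 (SE 0.37, adjusted p = 0.934, limma).
The position of the best summit was less constant than its rank. It lay 105 to 223 bp after the start in all 4 untreated libraries. It lay within 250 bp of the start in 6 of 12 R837 libraries, at 1997 to 2061 bp in 5, which is past the 3′ end of this gene of 1840 bp, and at 754 bp in replicate 2 of KO at 6 h. The distance averaged 153.2 ± 49.8 bp (SD, n = 4) in untreated and 969.9 ± 964.5 bp (SD, n = 12) in R837 libraries, a difference that an exact permutation test within genotypes (two-sided) did not call (p = 0.165, adjusted p = 0.329 over 4 genes). With the gene region cut at the annotated ends the Junb change was −3.55 (adjusted p = 0.295), since this leaves out the 5 summits past the gene end.

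**Figure D3:**
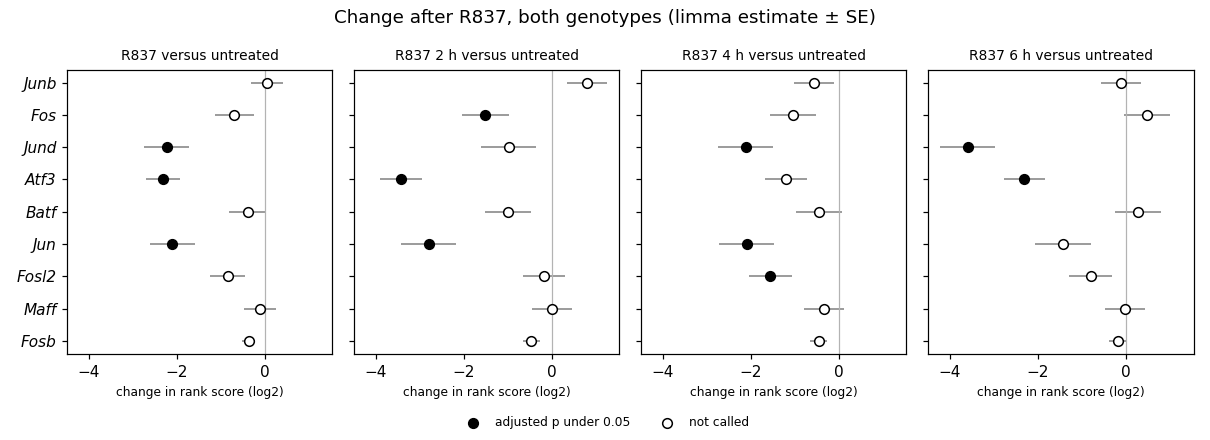
Change in rank score (log2) between R837 and untreated libraries of both genotypes, with the standard error of the limma fit, over all times and at 2, 4 and 6 h; filled points have an adjusted p under 0.05. Atf3 falls most at 2 h (−3.42), Jund most at 6 h (−3.59), and Junb lies between −0.57 (4 h) and 0.81 (2 h).

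Fos encodes the prototype FOS protein, whose promoter is a known target of SRF and of CREB (chr12:85473890-85477274, plus strand). A summit 41 to 149 bp after the start was its best in all 16 libraries, averaging 79.5 ± 27.8 bp (SD, n = 4) in untreated and 88.5 ± 35.0 bp (SD, n = 12) in R837 libraries (exact permutation test within genotypes, two-sided, p = 0.666). This summit lay downstream of the sequence printed for Fos above, which ends with the base before the start.
The rank scores were 6.08 and 6.89 (WT) and 6.07 and 6.97 (KO) untreated. They were 4.20 and 5.79 (WT) and 5.87 and 4.11 (KO) at 2 h, 6.54 and 6.59 (WT) and 4.54 and 4.17 (KO) at 4 h, and 7.01 and 7.71 (WT) and 6.15 and 7.06 (KO) at 6 h. All 4 libraries at 2 h lay below all untreated ones, and at 4 h both KO but neither WT libraries did.
The change at 2 h was −1.51 (SE 0.53, adjusted p = 0.0479, limma), and it was 1.99 (SE 0.53, adjusted p = 0.035) from 2 h to 6 h. Against untreated it was −1.04 (adjusted p = 0.166) at 4 h, 0.48 (adjusted p = 0.519) at 6 h and −0.69 (SE 0.43, adjusted p = 0.231) over all times. The 2 h call was close to the threshold and was lost in 11 of the 16 fits that left out 1 library, all but those without replicate 1 of KO untreated, replicate 2 of WT at 2 h, replicate 1 of KO at 2 h or either KO library at 6 h. The values in those 11 ran from −1.71 without replicate 1 of WT untreated to −1.07 without replicate 2 of KO at 2 h. The 6 h against 2 h call was lost in 7 of the 16, with values of 1.60 without replicate 1 of WT and 1.55 without replicate 2 of KO at 2 h, 1.99 without replicate 1 or 2 of KO at 4 h, 2.17 and 1.82 without replicates 1 and 2 of WT at 6 h, and 1.77 without replicate 2 of KO at 6 h. Fits of the compared groups alone, which take the error from fewer libraries, called neither (adjusted p = 0.132 and 0.172). Such fits also ended the calls of Jun given above, and those of Jund at 4 h (adjusted p = 0.0504) and from 2 h to 6 h (adjusted p = 0.111).

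Fosl2 encodes FRA2, a FOS relative without the strong activation domain of FOS (chr5:32136472-32157840, plus strand). In the 4 untreated libraries the best summit lay before the start, between −873 and −460 bp. After R837 it lay between −999 and −390 bp in 7 libraries, at 2267 bp in replicate 1 of WT at 6 h, and near the gene end, at 19239, 21819 and 21943 bp, in both WT libraries at 2 h and replicate 1 of KO at 6 h.
The rank scores were 2.50 and 2.49 (WT) and 1.42 and 2.52 (KO) untreated, 2.25 and 2.43 (WT) and 0.95 and 2.59 (KO) at 2 h, 0.53 and 0.08 (WT) and 1.48 and 0.63 (KO) at 4 h, and 0.62 and 0 (WT) and 3.29 and 1.83 (KO) at 6 h. The change was −0.84 (SE 0.40, adjusted p = 0.114, limma) over all times and −1.55 (SE 0.49, adjusted p = 0.0317) at 4 h. The 4 h call was lost without replicate 1 (−1.55) or 2 (−1.56) of WT untreated, replicate 2 of KO untreated (−1.28), replicate 1 (−1.67) or 2 (−1.44) of WT at 4 h or replicate 2 of KO at 4 h (−1.34). With no flank, which leaves out the upstream summit, the 4 h change was 0.27 (adjusted p = 0.639), and the change at 6 h was 1.18 (adjusted p = 0.0316) in place of −0.80.
At 6 h the deposited lists held 4 and 0 summits in the gene region in WT and 14 and 13 in KO, and the KO lists were also longer, at 22157 and 29760 summits against 17007 and 8394. In lists of equal length, log2(number + 1) was higher in KO at 6 h by 2.06 (SE 0.35, adjusted p = 0.015, limma), a comparison that called 1.94% of all tested genes. By rank score the difference of KO from WT at 6 h was 2.25 (SE 0.69, adjusted p = 0.145), and 2.98 (adjusted p = 0.133) without replicate 2 of KO at 6 h.

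**Figure D4:**
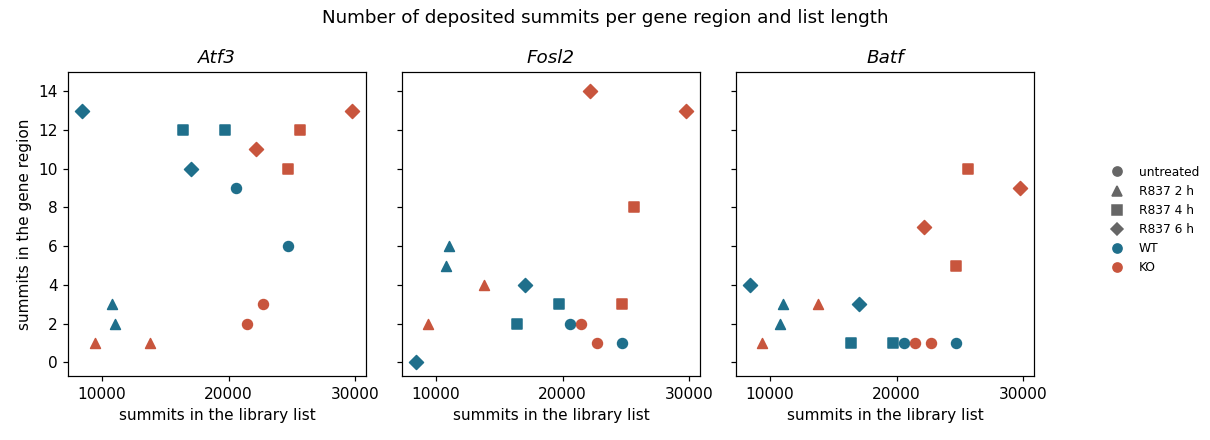
Number of deposited summits in the gene regions of Atf3, Fosl2 and Batf against the number of summits in the whole list of the library, with 1 point per library; shapes give the time and colours the genotype (WT blue, KO red). Atf3 holds 10 to 13 summits at 4 h and 6 h at short and long lists alike, while Fosl2 holds 13 and 14 only in the 2 KO libraries at 6 h.

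Fosb encodes a close relative of FOS (chr7:19302696-19310118, minus strand, with the annotated start at 19310045) and was at the weak end of the lists. All 4 deposited untreated lists held 1 summit 1488 to 1661 bp after the start, at rank 4837 and 4006 in WT and 13017 and 10497 in KO. With R837, 0 of 6 WT and 5 of 6 KO deposited lists held any Fosb summit, and the KO lists were longer than the WT lists at 4 h and 6 h. Only 4 shortened lists kept one: WT untreated at 0.80 and 1.07, replicate 2 of KO at 4 h at 0.04 and replicate 2 of KO at 6 h at 1.12, where it lay at −111 bp from the start.
The change over all times was −0.37 (SE 0.16, adjusted p = 0.079, limma). In WT alone it was −0.93 at each of the 3 times, past the threshold (adjusted p = 0.0314 at 2 h, 0.0339 at 4 h and 0.0305 at 6 h), and this rests on the 2 WT untreated libraries against WT R837 libraries that were all at 0. In KO alone no time was called. With only the compared groups fitted, the changes over both genotypes were called at 2 h (−0.47, adjusted p = 0.0135) and 4 h (−0.46, adjusted p = 0.0192), and the 3 WT calls were lost (adjusted p = 0.105, 0.138 and 0.126).
The change over all times was −0.46 without replicate 2 and −0.28 without replicate 1 of KO at 6 h. Both fits leave 1 library in that group, whose spread then no longer enters the error.

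Batf encodes a bZIP factor that pairs with JUN proteins and with IRF4 or IRF8 at composite sites (chr12:85686720-85709087, plus strand). Its best summit in all 16 libraries lay far inside the gene, 18889 to 18914 bp after the start in untreated libraries (18898.8 ± 11.4 bp, SD, n = 4) and 18337 to 18954 bp in R837 libraries (18758.8 ± 183.2 bp, SD, n = 12), and the distances did not differ past the threshold (exact permutation test within genotypes, two-sided, p = 0.0931, adjusted p = 0.329). In untreated cells this was the only summit of the gene, at chr12:85705609-85705634. A summit within 250 bp of the annotated start was in 0 of 4 untreated, 1 of 6 WT R837 and 4 of 6 KO R837 deposited lists, at ranks 5985 to 11499.
The rank scores were 3.79 and 5.18 (WT) and 5.07 and 4.05 (KO) untreated, 3.52 and 4.38 (WT) and 2.68 and 3.52 (KO) at 2 h, 3.90 and 3.32 (WT) and 4.24 and 4.78 (KO) at 4 h, and 5.05 and 5.31 (WT) and 5.34 and 3.49 (KO) at 6 h. They overlapped between untreated and R837 libraries, and the change was −0.39 (SE 0.43, adjusted p = 0.498, limma). The deposited number of summits was 1 in every untreated library and in both WT libraries at 4 h, against 10 and 5 in KO at 4 h. At 6 h it was 3 and 4 in WT and 7 and 9 in KO. The KO lists were longer than the WT lists of the same time, and in lists of equal length the means were 1.0 in WT and 1.5 in KO at 4 h and 2.5 in both at 6 h.

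Maff encodes a small MAF protein, which has a bZIP region but no activation domain (chr15:79346621-79359078, plus strand, 3 annotated starts). In the untreated libraries its best summit lay 10978 to 11035 bp after the first start, and with R837 it lay 1042 to 1525 bp after it in 10 of 11 libraries with a summit, a shift in position that was not tested. A summit within 250 bp of any of the 3 starts was in 3 of 4 untreated libraries and 3 of 4 at 4 h, but in 0 of 4 at 2 h and at 6 h. At 4 h it was the best summit of those libraries. The rank scores were 0.04 to 1.33 in untreated and 0 to 1.93 in R837 libraries, and the change was −0.11 (SE 0.37, adjusted p = 0.827, limma).

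The times shared the 4 untreated libraries, so their results are not independent. At 2 h, 3 of 9 genes fell (Atf3, Jun and Fos), against 24% of all tested genes, and 0 rose, against 4.84%. At 4 h, 3 of 9 fell (Jun, Jund and Fosl2), against 19.8%, and 0 rose, against 5.71%. At 6 h, 2 of 9 fell (Atf3 and Jund), against 23.3%, and 0 rose, against 6.35%. Between 2 h and 6 h, Fos rose and Jund fell, 1 of 9 each, against 4.38% and 3.93% of all tested genes. The member medians were −0.98 at 2 h, −1.04 at 4 h and −0.19 at 6 h, beside −0.40, −0.31 and −0.27 for all tested genes.

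KO and WT did not differ past the threshold in any of the 9 genes by rank score. Over the 3 R837 times limma called 0 of 9, against 0.755% of all tested genes, and 1 of 9 had an unadjusted p under 0.05 (Fos, −0.99, SE 0.43, adjusted p = 0.371). In untreated cells it called 0 of 9, against 1.43%, with 1 of 9 at an unadjusted p under 0.05 (Fosb, −0.93, adjusted p = 0.133). For the response in KO minus the response in WT it called 0 of 9, against 0.897%, again with Fosb at an unadjusted p under 0.05 (1.12, adjusted p = 0.138). The share of all tested genes at an unadjusted p under 0.05 is not set beside these counts, so they are not read as results. The Fosb difference of responses was 1.31 without replicate 1 and 0.94 without replicate 2 of KO at 6 h. Both fits leave 1 library in that group, so the spread between its 2 values (0 and 1.12) no longer enters the error. Calls gained in these fits are therefore not read as results. The untreated and the response values of Fosb rest on the 2 WT untreated libraries, the only untreated ones with a Fosb summit in the shortened lists. At single times 0 of 9 were called, against 0.0708% of all tested genes at 2 h, 0.401% at 4 h and 1.33% at 6 h.
By value, the widest gaps were in Fos, Fosl2 and Atf3. For Fos, KO minus WT at 4 h was −2.22 (SE 0.75, adjusted p = 0.425, limma), with both KO libraries below both WT ones. Atf3 differed by 1.86 (SE 0.67, adjusted p = 0.748) at 2 h, where both KO libraries were higher, and by −1.52 (SE 0.67, adjusted p = 0.666) at 4 h, where both were lower. With 2 libraries a group these comparisons leave wide errors, and a p above the threshold does not show that the genotypes were alike.

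Within a genotype, each time was set against its 2 untreated libraries. In WT, 2 of 9 genes fell at 2 h (Atf3 and Fosb), 2 at 4 h (Fosb and Fosl2) and 3 at 6 h (Jund, Fosb and Fosl2), against 13.1%, 10.9% and 14.1% of all tested genes. In KO, 2 of 9 fell at each time, Atf3 and Jun at 2 h and 4 h and Atf3 and Jund at 6 h, against 9.76%, 9.19% and 11.1%. The Fosb change in WT was the same −0.93 at all 3 times, since every WT R837 library was at 0. Its 3 calls are thus not separate results. None of the 9 rose in either genotype. All 13 of these calls were lost when only the 4 compared libraries were fitted, so that the error rests on those 4 alone. How many of all tested genes kept a call in such fits is not set beside this.
In WT, Atf3 fell by 4.11 (SE 0.67, adjusted p = 0.00132, limma) at 2 h, a call kept with any 1 library left out but lost with only the compared groups (adjusted p = 0.0623) and by number of summits (−1.08, adjusted p = 0.0644). Its WT changes at 4 h (−0.20, adjusted p = 0.922) and 6 h (−1.87, adjusted p = 0.0749) were not called. In KO, Atf3 changed by −2.74 after 2 h (limma, adjusted p = 0.0166) and by the same −2.74 after 6 h (0.0137), and between them, after 4 h, by −2.21 (0.0459). The 2 h call was lost without replicate 2 of KO untreated (−2.17) or replicate 1 (−2.96) or 2 (−2.52) of KO at 2 h, and the 6 h call without replicate 2 of KO untreated (−2.17) or replicate 1 of KO at 6 h (−2.12). The 4 h call was lost in 12 of 16 such fits, with values from −2.21 to −1.47, the last without replicate 1 of KO at 4 h.
The Jund change at 6 h was −4.26 (adjusted p = 0.00589) in WT and −2.92 (adjusted p = 0.0386) in KO. The WT call was lost without replicate 2 of WT untreated (−3.08) or of WT at 6 h (−2.96), and that in KO in 10 of 16 fits, with values from −3.22 without replicate 1 to −2.61 without replicate 2 of KO untreated. Jun in KO changed by −2.99 after 2 h and −2.93 after 4 h (limma, adjusted p = 0.0435 and 0.0457). Each call was lost in 14 of 16 fits without 1 library, with values from −3.54 to −2.44 at 2 h and from −3.39 to −2.47 at 4 h.
Fosl2 in WT changed by −2.19 after 4 h and −2.18 after 6 h (limma, adjusted p = 0.0491 and 0.0445). Each of these calls was lost in 10 of 16 such fits, with values from −2.42 to −1.96 at 4 h and from −2.49 to −1.87 at 6 h, and without flank the changes were 0.14 and 0.31. The Fosb calls in WT were lost in 3 of 16 such fits at 2 h, 7 at 4 h and 3 at 6 h, with values from −1.07 to −0.80. Whether the genotypes differed in these responses was tested only over all times, as given above.

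Genes of the same family and pathway were counted for comparison. Of 36 other bZIP genes, 30 were tested over all times, of which 9 fell (30%) and 3 rose, and their median change was −0.44. Cebpa, which drives the myeloid lineage, ranked 5.72 to 7.10 on the rank score in untreated and 0 to 2.67 in R837 libraries (−6.14, SE 0.33, adjusted p = 7.05e-08, limma). Cebpg, a C/EBP partner, changed by −1.79 (SE 0.40, adjusted p = 0.00375). The 3 that rose were Cebpd, a C/EBP factor of the acute response (2.73, SE 0.42, adjusted p = 0.000279), Nfe2 (1.84, SE 0.33, adjusted p = 0.000922) and Jdp2, a repressor that pairs with JUN (0.70, SE 0.21, adjusted p = 0.0203), the last with no summit in any untreated library.
Of 30 genes for MAP kinases, their phosphatases and SRF with its partners, which act upstream of AP-1, 22 were tested, of which 6 fell (27.3%) and 4 rose (18.2%), and their median change was −0.19. Dusp2, a MAP kinase phosphatase, rose by 3.88 (SE 0.84, adjusted p = 0.00312, limma), Mapkapk2, a kinase activated by p38, by 3.50 (SE 0.36, adjusted p = 1.33e-05) and Dusp16, a phosphatase of JNK, by 1.61 (SE 0.40, adjusted p = 0.00752). The largest falls were those of Map2k2 (−2.46, SE 0.45, adjusted p = 0.000979), Map2k3 (−1.80, SE 0.33, adjusted p = 0.00106) and Elk4, an SRF partner (−1.38, SE 0.36, adjusted p = 0.0106).

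For the 8 members with a summit in at least 8 shortened lists, the tested genes outside these lists whose rank scores followed them most closely over the 16 libraries were found by Pearson's r. They included Eif2ak1 (0.901) for Jun, Tdrd3 (0.885) and Id3 (0.881) for Jund, and Myl12b (0.878) and Specc1 (0.871) for Atf3. For Junb they were Dalrd3 (0.821) and Ndufaf3 (0.819), which are adjacent to each other, and for Maff Ighmbp2 and Mrpl21 (both 0.834). A summit in several gene regions counted for each, and whether the genes of either pair share summits was not tested. Fos followed Dnajc7 (0.796) and Scand1 (0.771), Fosl2 Csf2rb (0.793) and Rnf135 (0.762), and Batf Rab7b (0.763) and Dpysl2 (0.755). These are among the highest values for each member over the 8475 tested genes, less those of the lists and those with an overlapping region. They come from libraries that share their lists and carry no test.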

How the data were processed

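RNA polymerase II ChIP-seq had been done on 16 libraries of WT and N4bp1 KO bone marrow-derived macrophages with 75 nt single-end reads, per the labels' protocols. An input sample is listed and was not used here. GSNAP, MACS2 and the GRCm38 build were used by the authors, per the submitters' processing notes, while their versions, the control, the call threshold and depth scaling are not given in the sources used here. In each deposited file stand the 1 bp summits of 1 library, with replicates not pooled. The deposited score is a −log10 value, of p or of q, which the files do not tell apart. It is the authors' own, and here it served to order the summits of a list.

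Lists were shortened to 8394 summits, ties at the end being taken in order of chromosome and position. A summit in several gene regions counted for each. Gene spans and starts came from RefSeq (GRCm38.p6), and all 9 members matched by symbol. Rank scores of the 8475 tested genes entered 1 limma fit (version 3.58.1, R 4.3.3) of all 16 libraries, with a mean for each group, a variance trend and two-sided Benjamini-Hochberg adjusted p-values at 0.05. The procedure was tested on simulated data, drawn as normal values that were independent between genes. These held no shift of whole lists between untreated and R837 libraries, so the simulation does not check the calls for such a shift. Positions of best summits in the deposited lists were compared by exact permutation within genotypes. This was done for the 4 members with a summit in every deposited list (Fos, Junb, Atf3 and Batf). The replicate numbers in the labels were checked for pairing and did not pair the libraries. Alternatives changed the list length, flank, filter, ranking, measure, shared summits, variance trend, groups fitted, replicate block and single libraries.

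All 9 members are named. Of each other list, up to 3 called genes with the largest change in each direction are named. Some items are not reported here. The members and lists were chosen with earlier results of these data known.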

Additional observations from a re-analysis of the deposited data

Results flagged for a closer look

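Of 52 sets of 4 to 6 libraries of 1 member, 6 held a library far from the others by Dixon's criterion. Chance gives this in about 1 of 20 sets of normally spread values. The rank scores have a floor at 0 and the sets share libraries, so that rate cannot be set against the 6. In the Fosb sets at 4 h and 6 h all other libraries were at 0, so any value above 0 was flagged. Fosb had a rank score above 0 in only 1 of the 4 libraries at 4 h, replicate 2 of KO, at 0.04, and in only 1 of 4 at 6 h, replicate 2 of KO, at 1.12, which also stood apart among the 6 KO libraries with R837. Replicate 1 of KO untreated was the lowest of the 4 untreated libraries for Fosl2, at 1.42. Replicate 2 of KO untreated was the highest of them for Atf3, at 5.79. Replicate 2 of KO at 6 h was the lowest of the 4 libraries at 6 h for Batf, at 3.49.

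The 9 members were searched at 2, 4 and 6 h for opposite moves of the genotypes. In 2 cases every library of WT moved one way from its untreated mean and every library of KO the other way. With only 2 libraries per genotype and time, such a pattern can arise by chance in a search of this size. No chance rate was set beside the 2 cases, so they do not show a difference between the genotypes. For Fos at 4 h the change was 0.08 in WT and −2.17 in KO, and the KO against WT difference at 4 h was −2.22 with an adjusted p of 0.425 by limma. Both WT libraries at 4 h, at 6.54 and 6.59, lay between the WT untreated ones, at 6.08 and 6.89. For Junb at 6 h the change was −0.46 in WT and 0.26 in KO. Both KO libraries at 6 h, at 8.95 and 9.13, lay between the KO untreated ones, at 8.34 and 9.23. The difference between the WT and KO responses was not tested at single times.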

How the results depend on the processing

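The falls of Atf3, Jun and Jund over all times kept their calls in all 16 fits without 1 library and with 1 rank per gene (−1.77, −1.43 and −1.79), but not by number of summits (−0.03, −0.42 and −0.26). Of 4169 member values under alternatives, 3922 stayed on the same side of the threshold. Another 198 lost and 37 gained a call with the same sign, and 12 that were called in either setting changed sign. Of the 3922, 3361 were limma values called in neither setting, and 164 of these changed sign. The 4169 also hold the position values, none of which was called in any setting. The share that stayed thus does not tell how firm the calls were.

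Counts of called members (of 9) moved as follows, and the cause was not tested. The share of all tested genes called under each setting is mostly not set beside these counts. A move of the members can therefore not be told from a move of all genes. By number of summits 0 were called over all times, 0 at 4 h, 0 at 6 h and 1 from 2 h to 6 h (Atf3). That 1 rose, beside 4.86% of all tested genes. With 1 rank per gene 1 was called at 4 h (Jund). Without flank 5 were called at 6 h (Atf3, Fosb, Fosl2, Jun and Jund), 1 between untreated genotypes and 1 for the difference of responses (both Fosb). With only the compared groups 0 were called from 2 h to 6 h. Leaving out 1 library gave 3 to 4 over all times, 2 to 4 at 2 h, 0 to 4 at 4 h (0 without WT untreated replicate 2), 2 to 3 at 6 h, 0 to 3 from 2 h to 6 h (0 without KO at 2 h replicate 2), and 0 to 1 for each of KO against WT over the R837 times, in untreated cells and in response. Each fit without 1 library leaves 1 in its group, which then adds no spread to the error. The position tests called 0 throughout.

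Signs changed by number of summits for Fos at 2 h (0.50) and from 2 h to 6 h (−0.50), Fosl2 at 4 h (0.54), Atf3 at 6 h (0.74), Fosl2 in WT at 2 h (1.29) and 4 h (0.29), and Atf3 in KO at 6 h (0.66). Without flank they changed for Fosl2 at 4 h (0.27) and 6 h (1.18), and in WT at 2 h (1.87), 4 h (0.14) and 6 h (0.31).

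Same-numbered replicates did not deviate together: over 28 pairs of groups the correlation of deviations ran from −0.11 to 0.179 with a median of 0.008. With the replicate number as a block, 3 members were called over all times, and calls were lost for Fos at 2 h (−1.51, adjusted p = 0.0526), Fosl2 in WT at 4 h (−2.19) and 6 h (−2.18) and Jun in KO at 4 h (−2.93). Read depth is unknown, so what it limits cannot be given.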
